A study of Homo sapiens with 23 samples.

Results

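The 9 genes described here mark the epithelial and the mesenchymal state of a carcinoma cell. Epithelial cells hold together in sheets through E-cadherin, and cells that pass through the epithelial-mesenchymal transition lose such contacts, take up N-cadherin and vimentin and become motile. The switch is driven by transcription factors of the ZEB and SNAIL families, which bind E-boxes in promoters such as that of CDH1 and silence them. Lung cancer lines differ in where they lie between these states. At the chromatin level, H3K4me3 marks promoters, acetylated histones H3 and H4 mark active promoters and enhancers, H3K36me3 lies over transcribed gene bodies, H3K27me3 is laid down by Polycomb, and H3K9me3 marks heterochromatin.

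Members were chosen by name, not by a measured value, as 9 of the 20056 protein-coding genes of the RefSeq gene table. The epithelial set held 3 genes: CDH1, which encodes E-cadherin, EPCAM, which encodes an epithelial cell adhesion molecule, and ESRP1, which encodes an RNA-binding protein that directs epithelial splicing. The mesenchymal set held 6 genes: CDH2, which encodes N-cadherin, VIM, which encodes the intermediate filament vimentin, FN1, which encodes the matrix protein fibronectin, and the genes of the transcription factors ZEB1, ZEB2 and SNAI2. A peak counted for a gene when at least 1 bp of it lay within 1 kb on either side of the start site. The starts, in hg19, were position 68771195 of chromosome 16 for CDH1, 47596287 of chromosome 2 for EPCAM and 95653364 of chromosome 8 for ESRP1. For the mesenchymal genes they were 25757445 of chromosome 18 for CDH2, 17270258 of chromosome 10 for VIM, 216300791 of chromosome 2 for FN1, 31608101 of chromosome 10 for ZEB1, 145277958 of chromosome 2 for ZEB2 and 49833988 of chromosome 8 for SNAI2.

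Chromatin immunoprecipitation and sequencing was done in the cell line NCI-H23, derived from a non-small cell lung cancer, so every library comes from 1 line. Lists of peaks were used for 22 of the 23 samples, with 2 replicate lists for each of 11 targets: H3K4me3, H3K4me1, H3K36me3, H3K27me3, H3K9me3, H3K27ac, H4K5ac, H4K8ac, H4K12ac, the doubly acetylated H4 tail H4K5acK8ac, and BRD2, a BET protein that binds acetylated histones. The remaining sample is an input library and was not analysed here. The labels' protocol speaks of the BET inhibitor JQ1 and of its solvent DMSO, but not of which library had which, so no treatment is compared. The labels also do not say that the replicates are separate cultures, so the spread between lists may be technical. The lists held between 21580 and 277462 peaks, and between 0.348% and 64.7% of the peaks of a list had a q above 0.05. Read depth is unknown. Since 2 lists against 2 cannot give an exact two-sided p under 0.333, and genes are not replicates, values are given without a test. Fold enrichment and −log10 q are the authors' values for a peak and are compared within a list only.

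The promoters differed in their content of CpG, the dinucleotide at which DNA is methylated, as the RefSeq promoter sequences of GRCh38.p14 show. The table held 5 of the 9 genes: CDH2, VIM, FN1, ZEB1 and ZEB2. The 250 bases before the start in that table are printed for VIM, which had strong peaks of every acetylation mark. They are also printed for CDH2 and FN1, which had much weaker acetylation or none. The starts of the table were not matched to the hg19 starts used for the peaks. CG dinucleotides are in capitals, and each sequence runs 5′ to 3′ on the gene's strand. The sequences lie at chr10:17227991-17228240 (plus strand) for VIM, chr18:28177131-28177380 (minus strand) for CDH2 and chr2:215436069-215436318 (minus strand) for FN1.
VIM: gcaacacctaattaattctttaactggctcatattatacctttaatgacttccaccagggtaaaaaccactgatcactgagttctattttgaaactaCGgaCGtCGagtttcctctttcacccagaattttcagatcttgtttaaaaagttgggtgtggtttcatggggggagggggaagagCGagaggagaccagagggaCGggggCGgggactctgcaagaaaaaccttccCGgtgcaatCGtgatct
CDH2: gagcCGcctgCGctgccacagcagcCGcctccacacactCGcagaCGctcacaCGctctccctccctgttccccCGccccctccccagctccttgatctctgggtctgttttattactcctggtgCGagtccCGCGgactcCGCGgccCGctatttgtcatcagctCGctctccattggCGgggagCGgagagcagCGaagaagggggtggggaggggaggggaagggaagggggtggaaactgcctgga
FN1: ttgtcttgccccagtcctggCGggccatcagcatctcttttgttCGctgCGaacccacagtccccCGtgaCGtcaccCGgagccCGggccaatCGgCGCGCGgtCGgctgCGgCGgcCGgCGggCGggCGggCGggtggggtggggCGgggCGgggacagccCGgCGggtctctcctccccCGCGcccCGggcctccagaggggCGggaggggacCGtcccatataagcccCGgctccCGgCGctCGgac
The VIM sequence held 8 CG and 46.0% G plus C, that of CDH2 17 CG and 66.0%, and that of FN1 32 CG and 76.4%. The single ZEB2 sequence held 12 CG and 48.0%. ZEB1 had 7 sequences in the table, with 7 to 27 CG, and CDH2 had 2, of which the outer is printed. The other CDH2 sequence held 4 CG and 42.0% G plus C. The median over all 34943 sequences was 11 CG and 58% G plus C, so VIM lay below it in both and FN1 above it in both. The E-box CACCTG, read on both strands as CACCTG or CAGGTG, was not found in the sequences of VIM, CDH2, ZEB2 or FN1, and was in 2 of those of ZEB1. Of all sequences of this length, 17.5% held it. FN1 held the palindrome TGACGTCA, the cAMP response element, which 1.63% of all sequences held. These matches describe the letters only.

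H3K4me3 was called at all 9 starts in both lists, so this promoter mark did not separate the sets. Of all windows of the same size laid side by side along the autosomes and X, 2.62% had it in both lists. Among the epithelial genes, the authors' fold enrichment of the strongest peak in replicates 1 and 2 was 75.0 and 68.9 at CDH1, 60.4 and 65.1 at EPCAM, and 57.0 and 60.2 at ESRP1. The ESRP1 peak had its summit 1701 and 1712 bp upstream, outside the window, and a peak with its summit nearest the start gave a mean fold of 34.9 in place of 58.6. Among the mesenchymal genes, the values were 101 and 110 at ZEB1, 78.7 and 90.3 at VIM, and 78.2 and 84.6 at CDH2. The VIM peak covered the whole window, but its summit lay 1568 and 1527 bp downstream, also outside it. Where the summit had to lie within 1 kb, H3K4me3 was called in both lists at 2 epithelial and 4 mesenchymal genes. ESRP1, VIM and ZEB2 then dropped out. The fold was 72.8 and 67.5 at FN1 and 46.5 and 42.2 at SNAI2, the lowest of the 8 genes other than ZEB2. The highest epithelial value lay below those of ZEB1, VIM and CDH2 in each list, while FN1 and SNAI2 overlapped the epithelial range or lay under it. Mean coverage of the window was 78.3% ± 2.36 (SD over 2 lists) for the epithelial and 87.0% ± 1.21 for the mesenchymal genes, a difference larger than either SD. By gene the sets overlapped: ESRP1, at 92.4%, lay above FN1, SNAI2 and ZEB2, and ZEB2, at 62.9%, was the lowest of the 9.

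Breadth of H3K4me3 set VIM apart in size. Its peak spanned 9050 bp in replicate 1 and 10454 bp in replicate 2 and was wider than 99.8% and 99.9% of the peaks of the respective list. It reached from 1330 and 1336 bp upstream to 7719 and 9117 bp downstream. ZEB1 peaks measured 3955 and 3850 bp, CDH2 peaks 3377 and 3350 bp, and ESRP1 peaks 2536 and 3526 bp. CDH1 peaks measured 1840 and 1909 bp, FN1 peaks 1771 and 1861 bp, SNAI2 peaks 1643 and 1517 bp and EPCAM peaks 1589 and 1479 bp, so each set held wide and narrow peaks. ZEB2 was the gene whose values depended on the library: its peak had a fold of 25.9 in replicate 1 and 97.5 in replicate 2. In replicate 1 a peak over the start ended 1401 bp downstream and a separate peak with a fold of 85.9 ran from 1559 to 5137 bp downstream. In replicate 2 a single peak of 5377 bp covered both, with its summit 3071 bp downstream. A further H3K4me3 peak lay upstream of ZEB2 in both lists, at 2389 to 4608 bp with a fold of 80.8 and at 2446 to 4594 bp with a fold of 85.4. The gene table places the antisense genes VIM-AS1, ZEB1-AS1 and ZEB2-AS1, the divergent transcript FN1-DT and, at ESRP1, LINC02894 next to these genes, so a peak at a shared start cannot be given to 1 of them.

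**Figure D1:**
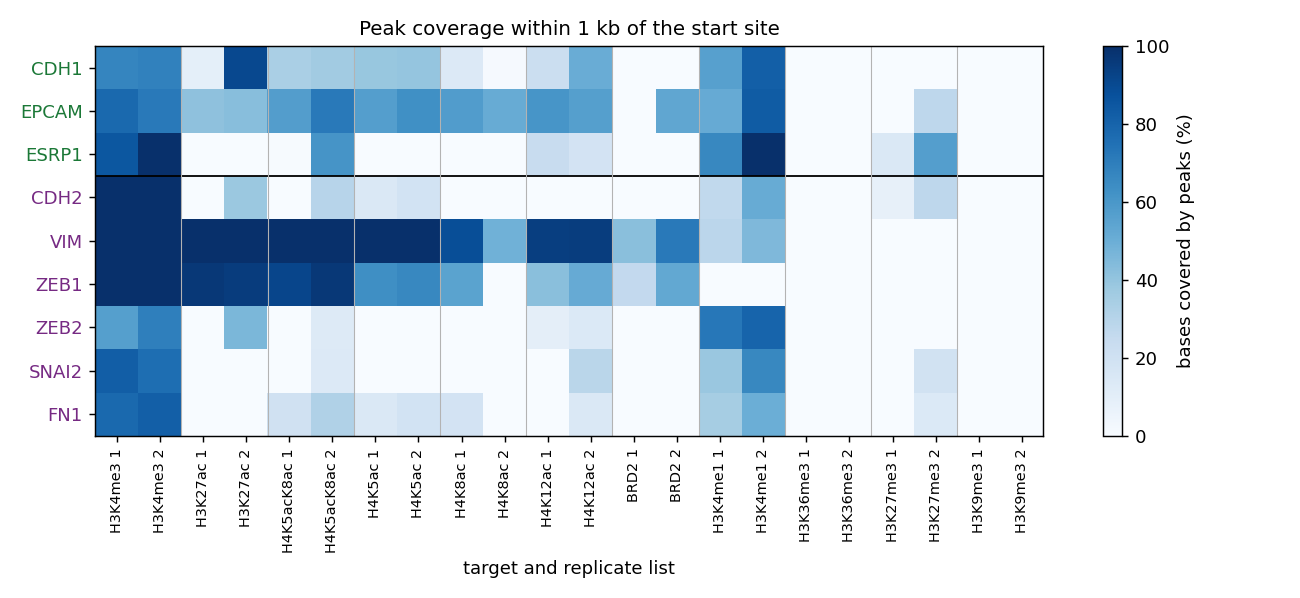
Share of the bases within 1 kb of each start site that was covered by peaks (colour, %), for 9 genes (lines) in the 22 lists (columns, target and replicate). The line separates 3 epithelial genes, above, from 6 mesenchymal genes. H3K4me3 covers every gene, whereas VIM and ZEB1 alone are covered by over 90% in both H3K27ac lists.

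H3K27ac, a mark of active promoters and enhancers, split both sets. By fold it was strong at VIM and ZEB1 and weak at CDH1 and EPCAM. It was not called in both lists at the other 5 genes. VIM had a fold of 61.0 and 56.0 in replicates 1 and 2, and ZEB1 had 61.1 and 56.5. CDH1 had 3.44 and 9.75, and EPCAM had 3.67 and 3.27. The lists disagreed at CDH1, where peaks covered 9.1% of the window in replicate 1 and 90.4% in replicate 2. The −log10 q of its strongest peak was 3.38 and 32.3. In each list that CDH1 peak had its summit downstream, just outside the window. VIM and ZEB1 thus lay above both epithelial genes in each list, by more than the replicates of any of these 4 genes differed. The 20843 regions with H3K4me3 in both lists served as a scale. Each had the −log10 q of its strongest H3K27ac peak within 1 kb of the summit, and regions with no such peak ranked lowest. The VIM peak was stronger by −log10 q than 93.1% and 95.3% of them, and that of ZEB1 than 83.3% and 82.2%. CDH1 exceeded 22.9% and 34.4%, and EPCAM 26.2% and 20.5%. The epithelial genes with H3K27ac were therefore in the lower part of the H3K4me3 regions.

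In counts, 2 of 3 epithelial and 2 of 6 mesenchymal genes had H3K27ac in both lists, against 5.5% of all windows and 78.2% of the H3K4me3 regions. The epithelial share was near that of the H3K4me3 regions and the mesenchymal share below it, over few genes. CDH2, with a fold of 5.22, and ZEB2, with 3.48, had a peak in replicate 2 alone, which by itself gives 4 of 6 mesenchymal genes. The shares of windows and of H3K4me3 regions were not computed for replicate 2 alone. No H3K27ac peak reached the window of ESRP1, SNAI2 or FN1. The nearest lay 77753 and 27501 bp from the ESRP1 start, 104456 and 131958 bp from that of SNAI2, and 87904 and 88032 bp from that of FN1. These 3 genes thus had H3K4me3 at the start and no H3K27ac over a wide stretch. Mean coverage was 30.6% ± 19.5 for the epithelial and 39.7% ± 9.76 for the mesenchymal genes (SD over 2 lists), a difference smaller than either SD.

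At CDH1 and ZEB2 the strong H3K27ac lay beside the start. Such neighbouring peaks are given where their q was at most 0.05. Upstream of CDH1 a peak at 3779 to 5286 bp had a fold of 19.8 in replicate 1, and a peak at 1653 to 6985 bp had a fold of 52.6 in replicate 2. H4K5acK8ac peaks lay there too, at 2563 to 5763 bp with a fold of 16.8 and at 3211 to 5690 bp with a fold of 14.6. BRD2 was called in the same stretch, at 4488 to 4862 bp with a fold of 3.86 in replicate 1 and at 4837 to 5053 bp with a fold of 4.13 in replicate 2. All 3 targets were thus called upstream of the E-cadherin gene in both lists, on the side of its neighbour CDH3, which encodes P-cadherin. H3K4me3 had no peak in that stretch in replicate 2 and a weak one in replicate 1, with a fold of 3.64. Downstream of the ZEB2 start, H3K27ac peaks at 1946 to 4563 bp and 1807 to 5034 bp had a fold of 24.8 and 33.8, and BRD2 peaks at 2665 to 3260 bp and 2592 to 3236 bp had a fold of 5.74 and 7.36. The strongest H3K27ac and BRD2 peaks within 10 kb of ZEB2 thus lay within the stretch of H3K4me3 downstream of the start given. In replicate 2, H3K27ac also lay at 6544 to 11649 bp downstream with a fold of 18.6, past the H3K4me3, and at 2328 to 4679 bp upstream with a fold of 10.2. In replicate 1 the upstream peak, at 3569 to 4417 bp, had a fold of 5.94. VIM had a distant peak beside that at its start: 9161 to 13849 bp and 8993 to 15711 bp upstream, H3K27ac had a fold of 43.5 and 41.8 and, over nearly the same bases, H4K5acK8ac had 22.6 and 26.4.

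**Figure D2:**
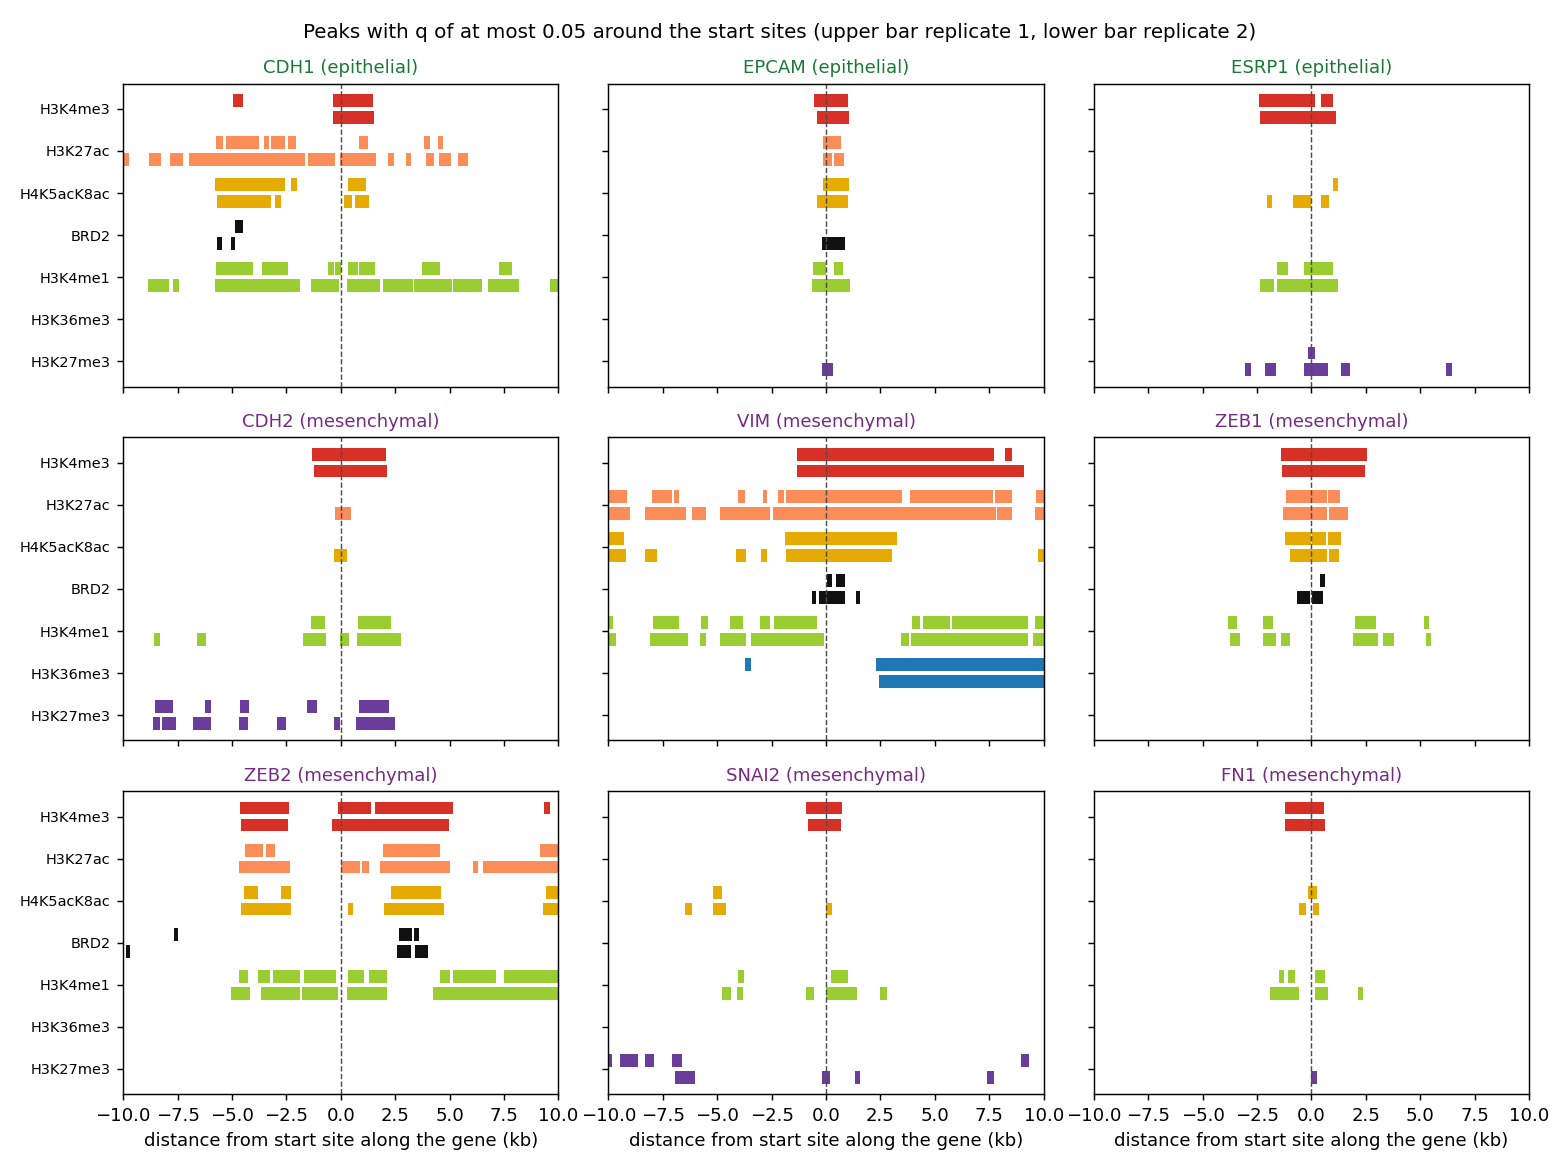
Peaks with a q of at most 0.05 within 10 kb of each start site, with distance along the gene in kb on the horizontal axis (negative is upstream) and 7 targets as lines, replicate 1 above replicate 2. H3K27ac spans the start in both lists at VIM, ZEB1 and, weakly, EPCAM. BRD2 lies near these 3 starts, at EPCAM in replicate 2 alone. The strongest H3K27ac and BRD2 peaks lie upstream at CDH1 and downstream at ZEB2.

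H4K5acK8ac, the acetylated H4 tail to which BET proteins bind, placed EPCAM at the level of ZEB1. VIM had a fold of 36 and 37, ZEB1 21.9 and 16.8, and EPCAM 15.4 and 18.4. The values of ZEB1 and EPCAM changed places between the replicates, so they did not differ beyond their spread. CDH1 had 4.47 and 6.18, ESRP1 3.66 and 3.71, and FN1 4.15 and 3.42, all low. The ESRP1 peak of replicate 1 covered 0.5% of the window. EPCAM exceeded 60.5% and 73.0% of the H3K4me3 regions by −log10 q in this mark, VIM 92.2% and 94.1%, and CDH1 19.3% and 21.8%. The mark was called in both lists at 3 of 3 epithelial and 3 of 6 mesenchymal genes, against 4.42% of windows and 85.0% of H3K4me3 regions. CDH2, ZEB2 and SNAI2 had it in replicate 2 alone, which by itself gives 6 of 6 mesenchymal genes. For replicate 2 alone, the shares of windows and of H3K4me3 regions were not computed. Mean coverage was 43.4% ± 18.2 and 41.3% ± 8.54 (SD over 2 lists), a difference smaller than either SD.

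In the single H4 acetylation marks VIM was again high. By fold, EPCAM lay above ZEB1 in both lists in H4K12ac alone. In H4K5ac their order changed between the lists, and in H4K8ac ZEB1 had a peak in replicate 1 alone. H4K12ac had a fold of 8.69 and 7.93 at VIM, 8.11 and 6.45 at EPCAM and 6.09 and 5.28 at ZEB1. In each list VIM had the highest fold and EPCAM lay above ZEB1. By −log10 q, EPCAM exceeded 90.5% and 76.4% of the H3K4me3 regions in H4K12ac and VIM 90.0% and 86.8%. H4K12ac was called in both lists at 3 of 3 epithelial and 3 of 6 mesenchymal genes, against 3.56% of windows and 78.3% of H3K4me3 regions. Replicate 2 alone, for which those shares were not computed, gives 5 of 6 mesenchymal genes, adding SNAI2 and FN1. Its peaks at ESRP1 and ZEB2 in replicate 1 had a −log10 q of 0.916 and 0.835, and that at ESRP1 in replicate 2 had 1.18, all a q above 0.05. With peaks of a q of at most 0.05, H4K12ac was called in both lists at 2 of 3 epithelial and 2 of 6 mesenchymal genes.

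H4K5ac had a fold of 12.1 and 15.6 at VIM, 8.30 and 6.60 at EPCAM, 7.40 and 6.79 at ZEB1 and 4.93 and 5.28 at CDH1. It was called in both lists at 2 of 3 epithelial and 4 of 6 mesenchymal genes, against 5.29% of windows and 83.1% of H3K4me3 regions. ESRP1, ZEB2 and SNAI2 lacked it in both lists, and CDH2 and FN1 had folds of 2.72 to 3.36. H4K8ac had a fold of 7.41 and 4.62 at VIM, 4.81 and 4.17 at EPCAM, and 2.99 and 4.21 at CDH1. EPCAM and CDH1 had near equal folds of H4K8ac in replicate 2, where the CDH1 peak covered 1.05% of the window and that of EPCAM 51.0%. In H4K8ac, ZEB1 with a fold of 7.12 and FN1 with 3.41 had a peak in replicate 1 alone. H4K8ac was called in both lists at 2 of 3 epithelial genes and, of 6 mesenchymal genes, at 1, VIM, against 4.75% of windows and 53.7% of H3K4me3 regions. With replicate 1 alone, for which those shares were not computed, 3 of 6 mesenchymal genes had it.

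Counted over the 10 acetylation lists, CDH1, EPCAM and VIM had a peak in all 10, ZEB1 in 9 and FN1 in 6. ESRP1, CDH2 and ZEB2 had a peak in 4, and SNAI2 in 2. Both H4K12ac peaks of ESRP1, and that of ZEB2 in replicate 1, had a q above 0.05. The share of H3K4me3 regions with as many acetylation lists was not computed. Each of these marks alone was called in both lists at 53.7% to 85.0% of those regions, so a high count may be common among them. The E-cadherin and vimentin genes, textbook markers of opposite states, had the same count of acetylated lists. The fold of their H3K27ac differed by far more than the replicates did. CDH1, EPCAM and VIM, at the top, came from both sets, as did ESRP1, CDH2 and ZEB2, level with each other in this count. SNAI2, at the bottom, was mesenchymal. Without the peaks of a q above 0.05, ESRP1 and ZEB2 would not be level with CDH2, and SNAI2 would not be alone at the bottom.

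**Figure D3:**
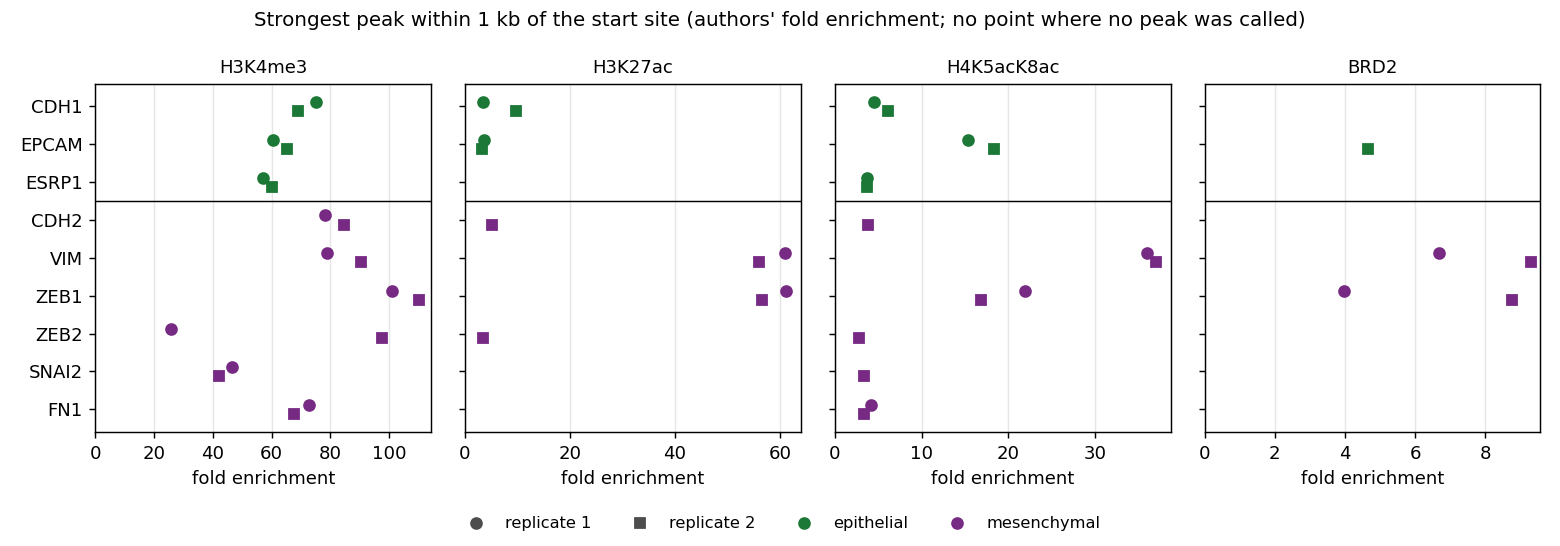
Authors' fold enrichment of the strongest peak within 1 kb of the start (horizontal axis, a separate linear scale for each target) for H3K4me3, H3K27ac, H4K5acK8ac and BRD2, with circles for replicate 1 and squares for replicate 2. Epithelial genes are green and mesenchymal genes purple, and no point is drawn where no peak was called. H3K27ac at VIM and ZEB1 lies between 56.0 and 61.1, and all other H3K27ac points lie at or below 9.75.

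BRD2, which reads acetylated histones, was called in both lists at 2 of the 9 starts, VIM and ZEB1. Its fold was 6.67 and 9.30 at VIM and 3.97 and 8.75 at ZEB1. EPCAM had a peak in replicate 2 alone, with a fold of 4.66, which lay below VIM and ZEB1 in that list. The count was 0 of 3 epithelial and 2 of 6 mesenchymal genes, against 1.15% of windows and 49.5% of H3K4me3 regions. With replicate 2 alone, for which those shares were not computed, 1 epithelial gene had BRD2. Mean coverage was 8.88% ± 12.6 for the epithelial and 16.0% ± 6.61 for the mesenchymal genes (SD over 2 lists), a difference smaller than the epithelial SD. By −log10 q, the BRD2 peak of VIM exceeded 91.7% and 78.9% of the H3K4me3 regions, and that of ZEB1 66.0% and 73.3%. Regions with no BRD2 peak ranked below any peak on this scale.

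H3K4me1, which flanks active promoters and marks enhancers, covered more of the epithelial windows. Mean coverage was 57.9% in replicate 1 and 88.3% in replicate 2 for the epithelial genes, and 33.4% and 48.7% for the mesenchymal genes. The mean over lists was 73.1% ± 21.5 and 41.0% ± 10.8 (SD over 2 lists), so the direction was the same in each list and the difference exceeded either SD. By gene, ESRP1 was covered by 66.2% and 100%, EPCAM by 51.3% and 83.1% and CDH1 by 56.1% and 81.7%. ZEB2, at 72.4% and 79.8%, lay above CDH1, EPCAM and ESRP1 or below all of them depending on the list: above in replicate 1 and below in replicate 2. ZEB1, at 0.0% and 0.15%, was the lowest. H3K4me1 was called in both lists at 3 of 3 epithelial and 5 of 6 mesenchymal genes, against 8.58% of windows and 79.5% of H3K4me3 regions. The strongest peak belonged to VIM, with a fold of 7.76 and 15.2 and its summit 1089 and 1014 bp upstream.

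H3K27me3, the Polycomb mark, was not confined to either set. It was called in both lists at ESRP1 and at CDH2, that is at 1 of 3 epithelial and 1 of 6 mesenchymal genes, against 9.93% of windows and 9.52% of H3K4me3 regions. CDH2 had a fold of 7.49 and 5.41, with a −log10 q of 15.0 and 7.77. ESRP1 had 2.87 and 3.11, with a −log10 q of 1.86 and 2.49, a weak peak in each list. The CDH2 peak was rank 1638 of its list in replicate 1 and was stronger than 99.5% and 97.6% of the H3K4me3 regions in that mark. Most of those regions had no H3K27me3 peak and ranked below any peak, so the weak ESRP1 peak also exceeded 89.8% and 88.6%. The summit of the CDH2 peak lay 1450 and 1554 bp downstream of the start, inside the stretch covered by H3K4me3. N-cadherin's gene thus had H3K4me3 and H3K27me3 peaks on the same bases. Peak lists from cell populations cannot tell whether both marks were on the same allele.

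In replicate 2 alone, H3K27me3 was also called at EPCAM, with a fold of 3.95, at FN1, with 3.22, and at SNAI2, with 2.66. That list by itself gives 2 of 3 epithelial and 3 of 6 mesenchymal genes. Shares of windows or of H3K4me3 regions were not computed for that list alone. Further from SNAI2, peaks covered 43.7% and 41.7% of the stretch from 10 to 50 kb upstream. VIM, ZEB1, ZEB2 and CDH1 had no H3K27me3 peak within 20 kb in either list, and the nearest to VIM lay 33176 and 26862 bp away. Mean coverage of the windows was 16.4% ± 16.5 for the epithelial and 5.73% ± 6.16 for the mesenchymal genes (SD over 2 lists), a difference smaller than the epithelial SD.

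H3K9me3, the heterochromatin mark, was called at 0 of 3 epithelial and 0 of 6 mesenchymal genes in either list, against 10.3% of windows and 3.78% of H3K4me3 regions in both lists. The nearest peak was that of CDH2 in replicate 2, 1049 bp from the start with no peak nearer than 16646 bp in replicate 1. At the other 8 genes the nearest peaks lay more than 10 kb away.

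H3K36me3, which follows elongating polymerase, was likewise called at 0 of 3 epithelial and 0 of 6 mesenchymal starts, against 9.85% of windows and 10.2% of H3K4me3 regions. Downstream of the starts, VIM stood apart. From 1 to 5 kb downstream of VIM, H3K36me3 covered 67.1% and 64.0%, and from 5 to 10 kb it covered 100% in both lists. The peak began 2318 and 2440 bp downstream and had a fold of 8.15 and 13.1. No other member had H3K36me3 within 10 kb downstream of its start. Distances, not gene bodies, were used, so a long gene may carry the mark beyond these stretches.

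At the other genes H3K36me3 lay far from the start or was missing. FN1 had 35.6% and 33.7% coverage from 50 to 100 kb downstream, ESRP1 21.1% and 19.9%, and CDH1 14.4% and 9.67%. ZEB1 had 4.6% and 4.53% from 20 to 50 kb. CDH2 and SNAI2 had 0.0% in every stretch to 100 kb downstream in both lists. Whether the distant values belong to the members or to their neighbours cannot be told apart with distances alone.

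**Figure D4:**
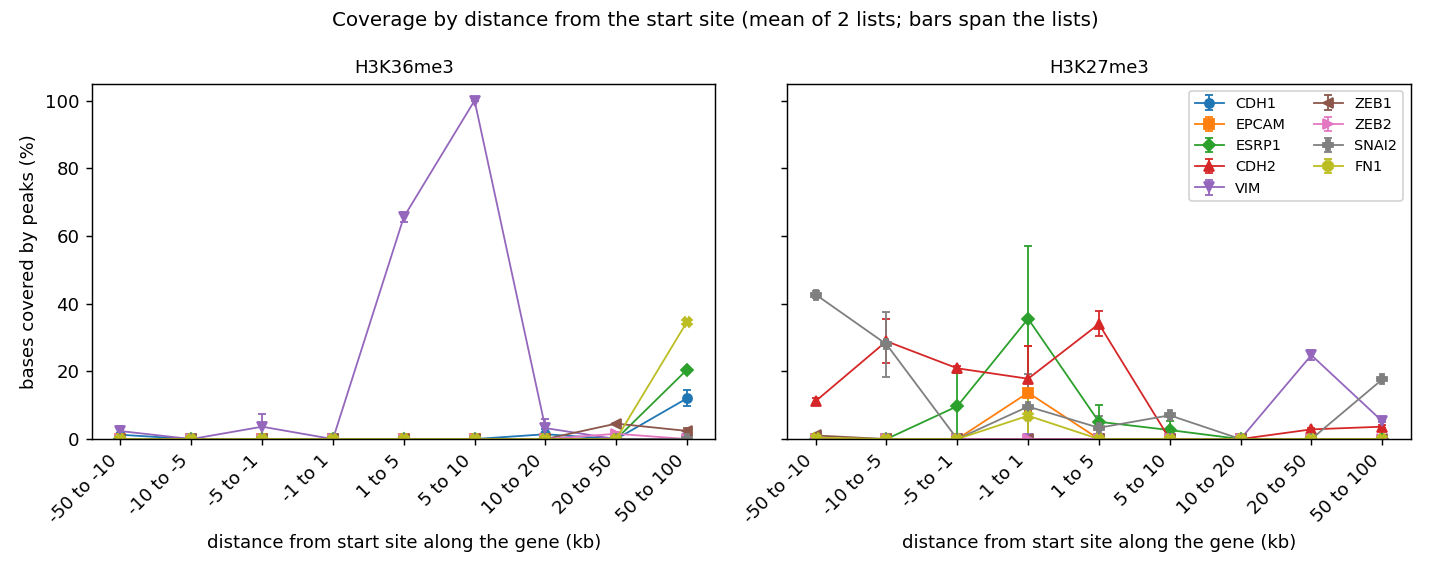
Share of bases covered by H3K36me3 (left) and H3K27me3 (right) peaks, in % on the vertical axis, in stretches by distance from the start site along the gene in kb (negative is upstream; the stretches are unequal in length). Points are means of 2 lists, bars span the lists, and lines join the stretches of a gene; EPCAM is drawn to 20 kb. VIM reaches 100% for H3K36me3 from 5 to 10 kb. H3K27me3 lies both upstream and downstream of SNAI2 and CDH2, and from 20 to 50 kb downstream of VIM.

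Likeness in the presence of peaks was counted over the 11 targets. By whether both lists had a peak, CDH1 and EPCAM, both epithelial, had the same answer for 11 of 11 targets, and CDH1 and VIM, EPCAM and VIM, and ZEB2 and SNAI2 for 10 of 11. A stricter count asked for the same call in replicate 1 and in replicate 2. By this count CDH1 and VIM, of opposite sets, had 10 of 11, and CDH1 and EPCAM, EPCAM and VIM, and VIM and ZEB1 had 9 of 11. ZEB1 and SNAI2, both mesenchymal transcription factor genes, had 3 of 11, the lowest of all pairs by the stricter count, and 5 of 11 by the other, a value shared with CDH2 and VIM, CDH2 and ZEB1, and VIM and SNAI2. H3K4me3 was called at every start and H3K36me3 and H3K9me3 at none, so all pairs had the same answer for these 3 targets. A value of 3 of 11 is thus the lowest possible, and the high values include these 3 targets. These values are a description, since the targets are also not independent of each other. Likeness between pairs of other H3K4me3 regions was not computed, so whether the high values are unusual is not known.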

How the data were processed

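Peak lists of 22 ChIP-seq libraries were used as deposited, 1 list for each library. Alignment with BWA, peak calling with MACS2 and the build hg19 are named in the submitters' processing notes, without settings. In the deposited lists fold enrichment is a ratio to local background. Significance is given by the authors as −log10 p-value and −log10 q-value for each peak. The deposited score was not used. Read depth is not given in the sources used here, so weak peaks and list lengths cannot be corrected for it.

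Samples were grouped by the target in their titles. For H3K9me3 replicate 2, the label's title and description disagree on the replicate number, and the title was used. Members and lists were chosen with earlier results of these data known, and the text names all 9 members. A peak was called at a gene when at least 1 bp lay within 1 kb of the hg19 start, and the gene counted when both lists had one. For each gene the strongest peak by −log10 q gave the fold. Gene strand set upstream and downstream; for CDH1, EPCAM, ESRP1 and SNAI2 it came from textbook knowledge. The background was every window of the size used at the starts, laid side by side along the autosomes and X up to the last peak, and every H3K4me3 region called in both lists. SDs are over 2 lists.

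The RefSeq tables are of GRCh38.p14, and no coordinates were converted between builds. H3K36me3 and H3K27me3 more than 20 kb downstream of EPCAM are not reported here. Genes beyond the 9 members were not analysed here, since their starts in hg19 were not used. The alternatives varied the window, the peak threshold, the summit rule, the replicate rule and the lists. Python 3.11.15, numpy 2.4.6, pandas 2.3.3 and matplotlib 3.10.9 were used, and the overlap code was tested on simulated data.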

Additional observations from a re-analysis of the deposited data

How the results depend on the processing

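No paired analysis was possible because no result comes from a test. Of 220 counts of genes under alternatives, 175 stayed within 1.5 times the count given and 45 moved. A threshold removes peaks and a wider window adds them by construction, and no other cause was tested. Unknown depth limits every absence of a peak, and broad marks are split by narrow peak calls.

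Restricted to the 10000 strongest peaks per list, the counts for epithelial and mesenchymal genes were 1 and 3 for H3K4me3 and 1 and 1 for H4K5acK8ac. The counts were 0 and 1 for H4K5ac, 1 and 1 for H4K12ac and 0 and 0 for H3K27me3. For H3K27ac they were 0 and 2, for H4K8ac 0 and 1 and for H3K4me1 0 and 1. In H3K27ac, H4K8ac and H3K4me1 the set with the larger share thus changed from the epithelial to the mesenchymal. The mesenchymal genes left were VIM and ZEB1 in H3K27ac and VIM alone in H4K8ac and H3K4me1. Shares of windows or of H3K4me3 regions were not computed for any of the alternatives. Where peaks needed a −log10 q of 5 or more, the epithelial count was 1 for H3K27ac, 1 for H4K5acK8ac and 1 for H4K12ac. It was 0 for H4K8ac and 0 for H3K27me3, each against 1 mesenchymal gene, so the larger share changed in both. At this threshold the mesenchymal count was 2 for H4K5ac and 1 for BRD2. Within 500 bp, the epithelial count was 1 for H3K27ac and 1 for H4K8ac, and the mesenchymal count 0 for H3K27me3. Within 5 kb, the mesenchymal count was 5 for H4K5acK8ac and 1 for H3K36me3, and for BRD2 the epithelial count was 2 and the mesenchymal count 3. In BRD2 the set with the larger share thus changed from the mesenchymal to the epithelial, whose genes were CDH1 and EPCAM. With the summit within 1 kb, the epithelial count was 1 for H3K27ac and 1 for H4K8ac. The mesenchymal count was then 3 for H3K4me1 and 0 for H3K27me3. In H3K27ac and H4K8ac, the epithelial gene left within 500 bp and by the summit rule was EPCAM, so CDH1 dropped out. With a peak in at least 1 list, the mesenchymal count was 4 for H3K27ac, 6 for H4K5acK8ac, 3 for H4K8ac, 5 for H4K12ac and 3 for H3K27me3, and the epithelial count 1 for BRD2 and 2 for H3K27me3.

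Leaving out either replicate gave mesenchymal counts of 2 to 4 for H3K27ac, 3 to 6 for H4K5acK8ac, 1 to 3 for H4K8ac, 3 to 5 for H4K12ac and 1 to 3 for H3K27me3, and epithelial counts of 0 to 1 for BRD2 and 1 to 2 for H3K27me3. The higher count came without replicate 1, except for H4K8ac, where it came without replicate 2. Of 39 mean folds under alternatives, 38 stayed within 1 SD, which leaving out 1 of 2 lists gives by construction, and 1 moved: ESRP1 in H3K4me3 was 34.9 with the peak whose summit was nearest.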
